A study of Mus musculus with 6 samples.

Results

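The genes described are the mouse FGF, WNT, BMP and GDF ligand genes, taken by symbol: 22 *Fgf*, 19 *Wnt*, 11 *Bmp*, 10 *Gdf*, 4 *Inhb* and 2 *Lefty* genes, 68 of the 55401 genes in the tables. They were measured by bulk RNA sequencing of lymphatic endothelial cells (LECs) sorted from the dura mater, the outer brain covering. All animals were WT for genotype, and the study's methods give male C57BL/6J mice and a sort on CD31, Podoplanin and LYVE-1 with exclusion of CD45. AAV-VEGF-C animals received a serotype 9 adeno-associated virus encoding full-length mouse VEGF-C, the lymphatic growth factor, into the cisterna magna. AAV-Control animals received the same kind of virus encoding a soluble piece of VEGFR-3 that does not bind VEGF-C, so the groups share the injection and differ in the encoded protein. Each group had 3 libraries, numbered by experiment from 1 to 3 in both groups, each from 10 to 12 pooled animals. The labels used here give no age.

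FGFs are secreted proteins that bind receptor tyrosine kinases together with heparan sulfate or a klotho protein, except the homologous factors of the family, which stay inside the cell and bind sodium channels. WNTs are lipid-modified ligands of Frizzled receptors, loaded by the acyltransferase Porcn and carried to the surface by Wls. BMPs, GDFs and activins are dimers of the TGF-beta family that assemble type I and type II receptors and act through SMAD proteins, and Lefty proteins antagonise their relative Nodal. In endothelium the best known members are *Gdf2* (BMP9) and *Bmp10*, which signal through Acvrl1 and Eng, and *Fgf2*, a mitogen of lymphatic endothelial cells. *Bmp1* carries the family name but encodes a metalloproteinase that trims procollagen and BMP antagonists.

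The libraries differed in depth, the total of estimated counts assigned to genes, which was 6530269 to 12399498 in AAV-Control and 564475, 1435008 and 3261935 in AAV-VEGF-C 1, 2 and 3. Depth and treatment cannot be told apart, since every AAV-VEGF-C library was shallower than every AAV-Control library. TPM (a share of transcripts, corrected for length) is used for levels of different genes and CPM (counts scaled to the library total) for comparisons of groups. The 3 features with the highest mean TPM, Gm24270, Gm23935 and Gm24245, took 0.2% to 33.9% of all TPM in AAV-Control and 38.9% to 67.1% in AAV-VEGF-C, which lowers the TPM of all other genes there. Genes with 0 counts in every AAV-Control library (2965 protein-coding genes) are called silent here. They received 0.231, 0.572 and 1.75 counts per kb of exon in AAV-VEGF-C 1, 2 and 3, and their AAV-Control rate is 0 by choice. Families not chosen on these counts (olfactory receptor and others, named below) received 0.316, 0.234 and 0.331 per kb in AAV-Control 1, 2 and 3. In AAV-VEGF-C 1, 2 and 3 these families received 0.658, 0.896 and 1.58 per kb. *Prox1*, the LEC transcription factor, had 339 to 662 counts in AAV-Control and 88 to 119 in AAV-VEGF-C. The 8 LEC markers summed to 1360 to 2181 CPM in AAV-Control and to 2961.5, 1083 and 698 CPM in AAV-VEGF-C 1, 2 and 3, and 0 passed the test below in edgeR (0 at an unadjusted p under 0.05) or in DESeq2 (1 at an unadjusted p under 0.05). Fibroblast markers summed to 9033 to 20860.5 CPM in AAV-Control and 5815 to 10909 CPM in AAV-VEGF-C, which overlap, with *Dcn* and *Ogn* lower among 8. Leukocyte markers stood at 38.6, 3358 and 1616 CPM in AAV-Control and 51.4, 2530 and 1386 CPM in AAV-VEGF-C 1, 2 and 3, so experiment 1 stood apart in both groups, and 0 of 6 tested passed in edgeR (0 at an unadjusted p under 0.05) and 0 of 7 in DESeq2 (2 at an unadjusted p under 0.05). Of 8 neural and glial markers, *Tubb3*, *Rbfox3* and *Sox10* were higher, and their sums (14.0 to 47.9 CPM against 66.2 to 77.5 CPM) did not overlap. Bone and tendon markers (450.0 to 829 CPM against 316 to 618 CPM) had *Dmp1* higher and *Tnmd* lower among 8, and epithelial markers summed to 28.0 to 41.3 CPM against 21.4 to 76.5 CPM. The part of any other cell type in the results below was not tested. In bulk samples, fewer cells of a type and less RNA per cell cannot be told apart.

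In the AAV-Control libraries the ligand RNAs were dominated by *Gdf10*, a secreted relative of *Bmp3* (chromosome 14, 33923587 to 33937983 on GRCm38, plus strand), at 81.6, 47.5 and 88.0 TPM (72.3 ± 21.8, SD, n = 3). It alone took 56.8%, 49.9% and 56.3% of the counts of all 68 genes. Fibroblast markers had more CPM than LEC markers in these libraries (values above), and the part of fibroblasts in the ligand levels was not tested. *Bmp1* followed at 20.2 ± 2.86 TPM, then *Bmp6*, an endothelial BMP known for its control of iron balance, at 11.2 ± 0.695, and *Fgf2* at 10.7 ± 7.13. The 3 values of *Fgf2* (18.8, 5.88 and 7.23 TPM) straddle those of *Bmp6* (11.0, 10.5 and 11.9 TPM), so these neighbours did not differ beyond their spread. The next ranks were *Bmp4* (7.76 ± 2.53), *Bmp2* (7.48 ± 4.74), *Wnt9a* (6.68 ± 3.60), *Bmp5* (4.99 ± 1.25) and *Bmp7* (3.90 ± 1.06), each with values overlapping those of its neighbour. *Wnt9a* had the highest mean of the WNT genes, ahead of *Wnt5b* (3.09 ± 1.70) and *Wnt5a* (2.50 ± 0.771), ligands of the beta-catenin-independent branch. The secreted FGF with the next highest mean after *Fgf2* was *Fgf7*, the keratinocyte growth factor, at 2.55 ± 1.46 TPM.

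A mean of at least 1 TPM was reached by 22 of the 68 genes in AAV-Control and by 26 in AAV-VEGF-C, 32 in either group. In AAV-VEGF-C the order was led by *Inhba*, the beta chain of activin A, at 58.6, 17.2 and 2.32 TPM (26.0 ± 29.1), followed by *Gdf10* (17.1 ± 11.3), *Fgf5* (12.5 ± 14.0) and *Fgf13* (12.4 ± 8.44). The values of these 4 genes overlap widely within AAV-VEGF-C. In AAV-Control the ranks of *Inhba*, *Fgf5* and *Fgf13* by mean TPM were 23, 53 and 21.

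**Figure D1:**
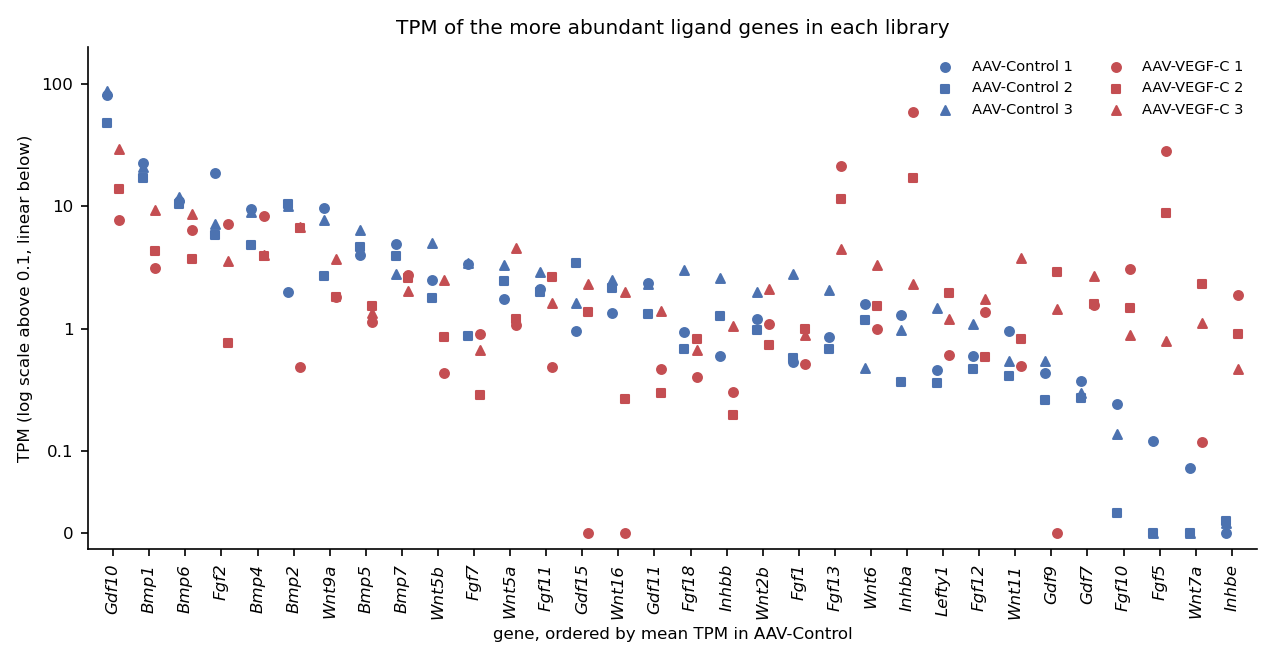
TPM of the 32 ligand genes averaging at least 1 TPM in either group; each point is a library, blue for AAV-Control and red for AAV-VEGF-C, with the marker shape giving the experiment, and the vertical axis is logarithmic above 0.1 TPM and linear below. *Gdf10* stands highest in all 3 AAV-Control libraries, and *Inhba*, *Fgf5* and *Fgf13* show red points above every blue point, highest in AAV-VEGF-C 1.

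The treatment effect was asked of every gene in the count table. Of the 68 ligand genes, 35 passed the filter on low counts (a cutoff of 2.04 CPM) and were tested by edgeR. In AAV-VEGF-C, 11 were higher at an adjusted p under 0.05: *Bmp3*, *Bmp10*, *Fgf5*, *Fgf6*, *Fgf10*, *Fgf13*, *Gdf7*, *Inhba*, *Inhbe*, *Wnt3a* and *Wnt7b*. Over all 17459 genes tested, 10.5% were higher and 0.659% were lower. Of the 11, *Inhba* was over the cutoff in all 3 AAV-Control libraries. The other 10 were among 15 tested ligand genes over the cutoff in all 3 AAV-VEGF-C and fewer than 3 AAV-Control libraries. Such genes entered the test through their AAV-VEGF-C values, so the number called is a description of what was tested. edgeR called 0 ligand genes lower (2 at an unadjusted p under 0.05, *Fgf2* and *Gdf10*), where DESeq2 called those 2 lower and limma on log2(TPM + 1) called *Gdf10*. Without a filter, edgeR called 29 of the 68 higher, beside 21.1% of all genes so tested. DESeq2 called 23 higher, beside 12.7%, and its 2 lower calls stand beside 1.13% of all genes.

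The calls depended on which libraries entered the fit. No ligand gene was called without AAV-Control 2, AAV-Control 3 or AAV-VEGF-C 2, where edgeR called 0, 0 and 8 genes higher over the whole table, while 18, 22 and 24 ligand genes were higher at an unadjusted p under 0.05. In those 3 fits the logFC (fitted log2 fold change) of *Inhba* was 6.63, 6.57 and 7.18, that of *Fgf13* 4.97, 4.92 and 5.17, and that of *Inhbe* 8.29, 7.63 and 8.22. With AAV-VEGF-C 3 left out, *Fgf5*, *Fgf13*, *Inhba* and *Inhbe* were called, beside 1.73% of all genes higher. Without AAV-Control 1 or AAV-VEGF-C 1, 13 ligand genes were called, beside 9.73% and 6.13% of all genes. In another fit, the count predicted by a rate per kb was taken off each gene. The rate came from silent genes in AAV-VEGF-C and from olfactory receptor and other gene families (named below) in AAV-Control. After this subtraction, 0 of 30 tested ligand genes passed in edgeR (9 higher and 2 lower at an unadjusted p under 0.05) and 12 genes passed over the whole table. The logFC after subtraction was 7.29 for *Inhba*, 10.58 for *Fgf5*, 5.48 for *Fgf13*, 10.10 for *Inhbe* and 3.99 for *Gdf7*, each larger than in the fit without subtraction. The subtraction also lowered AAV-Control counts, which were few for *Fgf5* and *Inhbe*, and its part in the larger values was not tested.

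**Figure D2:**
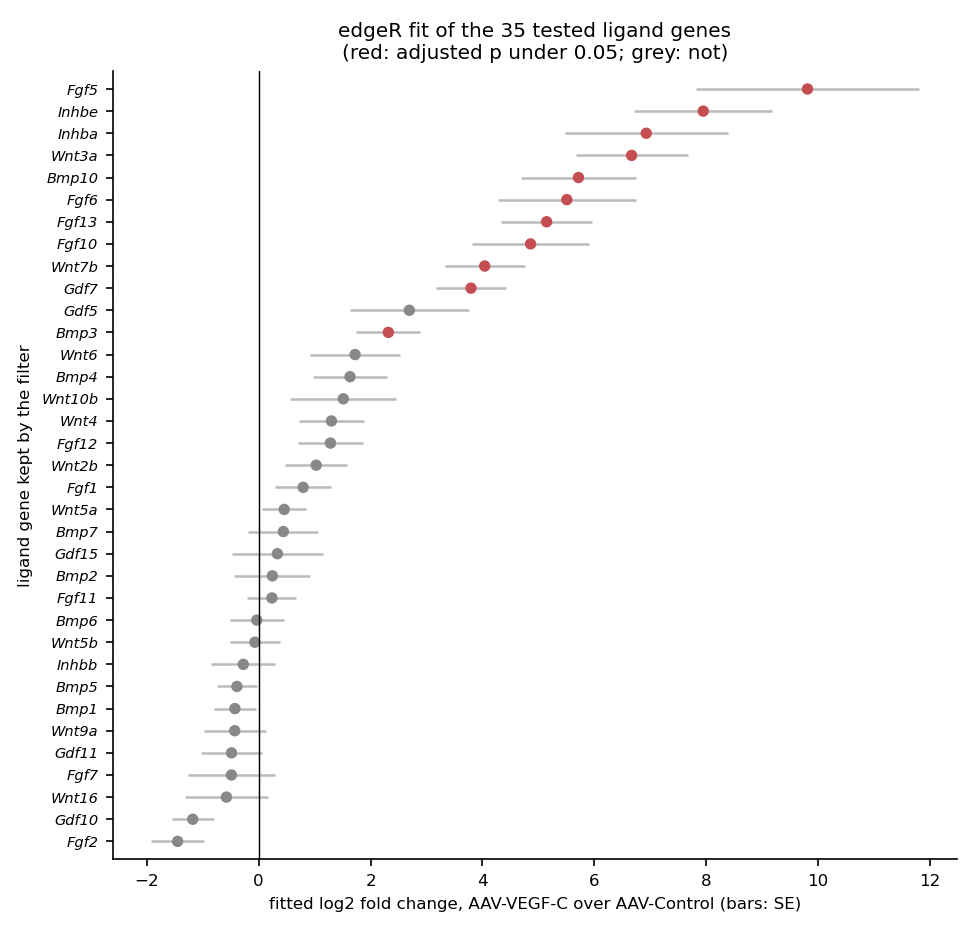
Fitted log2 fold change (horizontal axis) of AAV-VEGF-C over AAV-Control for the 35 ligand genes tested by edgeR, red where the adjusted p was under 0.05. Bars are an approximate standard error, derived from the fold change and the F statistic of the test. The 11 red genes lie between 2.32 (*Bmp3*) and 9.81 (*Fgf5*), and *Gdf10* and *Fgf2* lie lowest at -1.18 and -1.45.

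The called genes with the most AAV-VEGF-C counts were *Inhba*, *Fgf5* and *Fgf13*. *Inhbe*, another activin chain, is described with them because it shares the count pattern given below. *Inhba*, whose product forms activin A, was read with 45.7, 23 and 52 counts in AAV-Control 1, 2 and 3 and with 622, 316 and 82.8 counts in the far shallower AAV-VEGF-C 1, 2 and 3. In CPM these were 7.001, 2.93 and 4.19 against 1103, 220 and 25.4, so the groups did not overlap, and the ratio within experiments 1, 2 and 3 was 158, 75.1 and 6.05. The logFC was 6.93 (SE 1.46, edgeR adjusted p = 0.0263), and it was 4.72 without AAV-VEGF-C 1 and at most 7.42 without any other library.

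*Fgf5*, the FGF that ends the growth phase of the hair follicle, had 3, 0 and 0 counts in AAV-Control and 141, 73 and 13 in AAV-VEGF-C, or 250, 50.9 and 3.99 CPM in AAV-VEGF-C. Its summed counts over summed totals gave a ratio of 385 (exact 95% counting interval 130 to 1882). Such intervals, here and below, pool the counts of each group and leave out the spread between libraries. The fitted logFC was 9.81 (SE 1.99, edgeR adjusted p = 0.0243). Leaving out single libraries moved it between 7.61 (without AAV-VEGF-C 1) and 12.37 (without AAV-Control 1), and fitted values of genes with so few AAV-Control counts depend on the prior count of the fit. *Inhbe*, an activin chain known from liver, had 0, 1 and 1 counts in AAV-Control and 25, 18 and 18 in AAV-VEGF-C. The ratio was 155 (counting interval 41.2 to 1311), with a fitted logFC of 7.95 (SE 1.23, edgeR adjusted p = 0.0193). *Fgf13*, an intracellular partner of sodium channels and of microtubules, had 14, 11 and 23 counts in AAV-Control and 56, 70 and 51 in AAV-VEGF-C. It stood at 2.14, 1.40 and 1.86 CPM against 99.2, 48.8 and 15.6 CPM, with ratios of 46.3, 34.8 and 8.43 within experiments 1, 2 and 3 and a fitted logFC of 5.15 (SE 0.808, edgeR adjusted p = 0.0193), which ranged from 4.14 to 5.57 when single libraries were left out.

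These 4 genes are grouped by a pattern of their counts, which is therefore not a separate result about the group. Each had more counts in AAV-VEGF-C 1 than in AAV-VEGF-C 3, although the total of AAV-VEGF-C 3 was 5.78 times that of AAV-VEGF-C 1. Among the 10777 genes with at least 50 counts summed over the AAV-VEGF-C libraries, 256 (2.38%) had more counts in AAV-VEGF-C 1 than in AAV-VEGF-C 3, and among the 22 ligand genes of that depth these were the 4. *Gdf10* (97, 270 and 1125 counts) and *Bmp1* (38, 75 and 314 counts) had more counts in the deeper of the same libraries. The CPM of all 4 was highest in AAV-VEGF-C 1 and lowest in AAV-VEGF-C 3, so the ratio to AAV-Control differed between experiments. The LEC markers followed the same order in these libraries and the leukocyte markers were lowest in AAV-VEGF-C 1 (values above), and their part in this pattern was not tested.

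**Figure D3:**
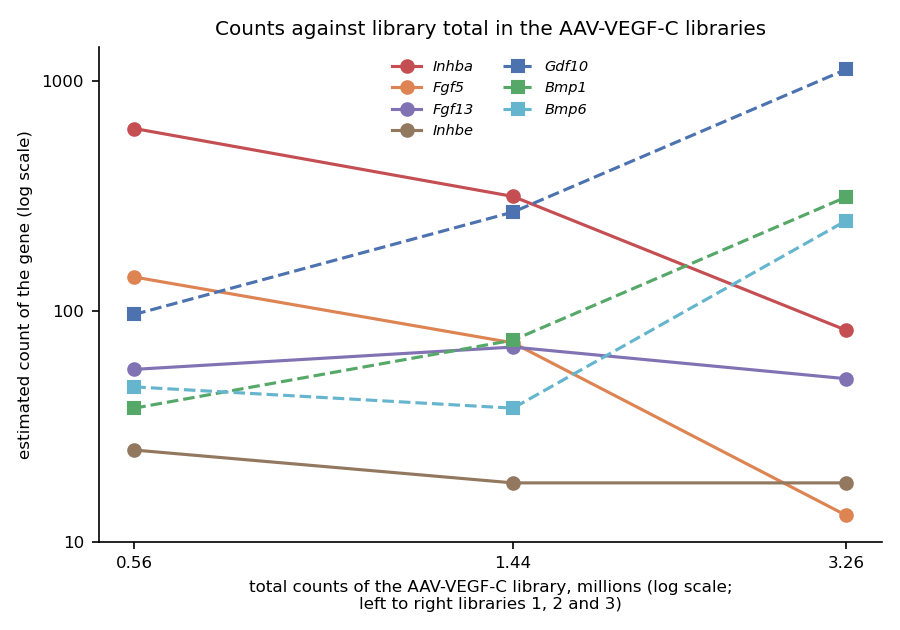
Estimated counts (log scale) of 7 ligand genes against the total counts of AAV-VEGF-C 1, 2 and 3 (log scale). *Inhba*, *Fgf5*, *Fgf13* and *Inhbe* (solid lines) have more counts in the shallowest library than in the deepest, while *Gdf10*, *Bmp1* and *Bmp6* (dashed lines) have most counts in the deepest.

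The promoters of these 4 genes are shown because each of them had more counts in AAV-VEGF-C 1 than in AAV-VEGF-C 3. Each sequence is the 250 bases before a RefSeq transcription start on GRCm38.p6, read 5′ to 3′ on the gene's strand, at the entry nearest the annotated 5′ end of the gene, and capitals mark a match to the letters TATAAA or their reverse complement.
Inhba, chr13:16011601-16011850, plus strand: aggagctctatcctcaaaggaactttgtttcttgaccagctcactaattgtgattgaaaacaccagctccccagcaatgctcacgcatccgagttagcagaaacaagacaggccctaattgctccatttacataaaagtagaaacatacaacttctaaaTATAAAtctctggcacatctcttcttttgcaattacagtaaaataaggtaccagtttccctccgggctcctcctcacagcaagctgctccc
Fgf5, chr5:98253934-98254183, plus strand: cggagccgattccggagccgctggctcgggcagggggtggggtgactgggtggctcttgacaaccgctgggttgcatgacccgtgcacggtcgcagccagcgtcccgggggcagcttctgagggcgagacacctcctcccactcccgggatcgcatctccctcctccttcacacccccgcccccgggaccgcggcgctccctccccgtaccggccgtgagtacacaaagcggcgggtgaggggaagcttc
Fgf13, chrX:59567349-59567598, minus strand: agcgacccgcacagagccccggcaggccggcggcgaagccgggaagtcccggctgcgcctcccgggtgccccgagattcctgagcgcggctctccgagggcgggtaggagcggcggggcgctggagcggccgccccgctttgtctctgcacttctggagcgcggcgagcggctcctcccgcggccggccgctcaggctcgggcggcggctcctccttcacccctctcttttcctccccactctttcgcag
Inhbe, chr10:127351849-127352098, minus strand: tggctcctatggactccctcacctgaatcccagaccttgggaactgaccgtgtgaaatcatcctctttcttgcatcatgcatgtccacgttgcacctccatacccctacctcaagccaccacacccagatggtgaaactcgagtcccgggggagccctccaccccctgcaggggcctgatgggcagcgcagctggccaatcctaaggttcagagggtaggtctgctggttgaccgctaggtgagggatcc
The start used lay at the annotated 5′ end for *Inhba* and *Fgf5*, 723 bases from it for *Fgf13*, which has 4 RefSeq entries, and 2563 bases from it for *Inhbe*. The windows of *Fgf13* and *Fgf5* hold 33 and 24 CG dinucleotides, more than 96.0% and 88.0% of all 32817 promoter windows, while those of *Inhbe* and *Inhba* hold 6 and 3, and the median was 6. TATAAA was found in the *Inhba* window alone among the 4, and in 12.4% of all windows. The AP-1 letters TGACTCA (4.46% of all windows) and the CRE letters TGACGTCA (1.55%), searched on both strands, were in none of the 4. The gene counts do not show which start was used.

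*Fgf10*, a mesenchymal ligand of Fgfr2, had 9, 1 and 8 counts in AAV-Control and 21, 18 and 21 in AAV-VEGF-C, nearly the same number at every AAV-VEGF-C depth. In CPM it stood at 1.38, 0.127 and 0.645 against 37.2, 12.5 and 6.44, with a fitted logFC of 4.86 (SE 1.05, edgeR adjusted p = 0.0275) that became 3.70, and was not called, when AAV-VEGF-C 1 was left out. *Gdf7*, a ligand of the tendon and dorsal neural tube, had 9.03, 7 and 7 counts in AAV-Control and 8, 12.2 and 43.8 in AAV-VEGF-C. Its CPM of 14.2, 8.47 and 13.4 in AAV-VEGF-C lay above 1.38, 0.891 and 0.565 in AAV-Control in every experiment (logFC 3.79, SE 0.621, edgeR adjusted p = 0.0193), and unlike *Fgf10* its counts were highest in the deepest library.

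The other called genes had low counts throughout. *Wnt3a*, a canonical WNT, had 0, 1 and 0 counts in AAV-Control and 4, 6 and 19 in AAV-VEGF-C, a ratio of 148 with a counting interval of 24.5 to 6030.4 (fitted logFC 6.67, SE 1.001, edgeR adjusted p = 0.0193). *Wnt7b*, which acts on brain endothelium through Gpr124 and Reck, had 3, 3 and 7 counts against 3, 4 and 43, so its AAV-Control and AAV-VEGF-C counts differed by no more than 1 in experiments 1 and 2, where the depths differed (logFC 4.04, SE 0.719, edgeR adjusted p = 0.0198). *Bmp10*, a high-affinity ligand of Acvrl1, had 0, 0 and 2 counts against 4, 5 and 10, a ratio of 48.4 with an interval of 11.7 to 428 (logFC 5.72, SE 1.03, edgeR adjusted p = 0.0199). *Fgf6*, a ligand of skeletal muscle, had 3, 0 and 0 counts against 5, 8 and 15, a ratio of 47.5 with an interval of 14.7 to 244 (logFC 5.51, SE 1.24, edgeR adjusted p = 0.0305).

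*Bmp3*, which restrains BMP signalling in bone, had 7, 6 and 24 counts in AAV-Control and 3, 8 and 20 in AAV-VEGF-C, so the counts themselves were alike and the difference lay in the totals. It rose by a fitted logFC of 2.32 (SE 0.575, edgeR adjusted p = 0.0403) and was called in 3 of 14 alternatives. *Lefty2* had 1.06, 0 and 0 counts against 1, 4.41 and 13.7 and did not pass the filter, and DESeq2 gave it a logFC of 6.23 (SE 1.67, adjusted p = 0.00276). The counts of *Lefty2* and of *Lefty1* (1, 6.59 and 16.3 in AAV-VEGF-C) were fractional, and these genes cannot be told apart with certainty. The study displayed *Wnt3a*, *Lefty2*, *Bmp10*, *Fgf6*, *Gdf7* and *Bmp3* among secreted factors on the basis of these libraries, so their direction is not independent evidence.

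At the other end, *Gdf10* was read with 4869, 3125 and 7399 counts in AAV-Control and 97, 270 and 1125 in AAV-VEGF-C. In CPM it stood at 746, 398 and 597 against 172, 188 and 345, with no overlap, and its share of the counts of all ligand genes was 7.6% in the shallowest AAV-VEGF-C library and 33.1% in the deepest. The fitted logFC of -1.18 (SE 0.375) missed the threshold in edgeR (adjusted p = 0.0877). With the experiment number as a block, which the labels tie to repeats of the experiment, it was -1.15 (adjusted p = 0.0479) and *Gdf10* was called lower. *Fgf2* had 480, 252 and 569 counts against 9, 14 and 81 (73.5, 32.1 and 45.9 CPM against 15.9, 9.76 and 24.8 CPM), with a logFC of -1.45 (SE 0.470, edgeR adjusted p = 0.0923) and of -1.35 (adjusted p = 0.0314) with the block. The block fit called these 2 ligand genes lower, beside 2.07% of all genes, and 11 higher, beside 12.8%, with *Gdf5* (3.24, adjusted p = 0.0368) in place of *Bmp3* (2.37, adjusted p = 0.0709). The fibroblast markers *Dcn* (2473, 1373 and 5471 counts against 41, 125 and 375) and *Ogn* were lower in the same libraries, and their part in the values of *Gdf10* and *Fgf2* was not tested. *Fgf2* shares genomic positions with *Nudt6* and *Fgf2os* on the opposite strand, and the use of strand in counting is not given in the sources used here. The same limit holds for *Inhba*, *Inhbe*, *Fgf10*, *Fgf13* and *Wnt7b*, called higher above, which also share positions with annotated genes on the opposite strand.

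The remaining BMPs did not pass the test. *Bmp4*, a ligand of mesoderm and vessels, had 70, 106 and 159 counts in AAV-Control and 37.1, 30 and 45 in AAV-VEGF-C. Its CPM did not overlap (10.7 to 13.5 against 13.8 to 65.8), but scaled by TMM it did (10.8 to 13.5 against 12.9 to 85.5). The logFC was 1.63 (SE 0.666, edgeR adjusted p = 0.159) and fell to 0.45 without AAV-VEGF-C 1. Without a filter edgeR called it higher (1.29, adjusted p = 0.0354), while limma on TPM gave -0.48 and -0.55 with pseudocounts of 1 and 0.1. *Bmp2*, an osteogenic ligand also made by endothelium, had 78, 447 and 556 counts against 4, 87 and 173, lowest in experiment 1 in both groups, with a logFC of 0.25 (SE 0.681). *Bmp5* had 90, 113 and 243 counts against 7, 17 and 29 (13.8 to 19.6 CPM against 8.89 to 12.4, and 14.4 to 16.5 against 8.34 to 16.2 with TMM scaling, where the groups overlap), with a logFC of -0.39 (SE 0.362). *Bmp6* (541, 560 and 736 counts against 47, 38 and 248) and *Bmp7* (218, 183 and 157 against 27, 32 and 53) had logFC values of -0.03 (SE 0.486) and 0.44 (SE 0.623). *Bmp1*, the protease, had 946, 602 and 1213 counts against 38, 75 and 314 (logFC -0.42, SE 0.371).

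Among the GDFs and Lefty genes, *Gdf5*, a ligand of joint formation, had 13, 4 and 2 counts against 5, 7 and 10 (logFC 2.69, SE 1.07, edgeR adjusted p = 0.149). *Gdf11*, a close relative of myostatin, had 123, 76 and 153 counts against 5, 5 and 46, and *Gdf15*, a cytokine of cell stress, had 17, 66 and 38 against 0, 9 and 28. Their logFC values of -0.49 (SE 0.552) and 0.33 (SE 0.807) did not pass. *Gdf9*, an oocyte ligand, had 9, 6 and 15 counts against 0, 6 and 10, and *Lefty1*, a Nodal antagonist, had 6.94, 8 and 23 against 1, 6.59 and 16.3. Neither passed the filter. *Inhbb*, the chain of activin B, had 38, 86 and 192 counts against 4, 4 and 43.2 (logFC -0.27, SE 0.575) and did not pass.

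The WNT genes with more counts did not pass the test. *Wnt9a* had 394, 119 and 425 counts against 16, 24 and 96 (-0.43, SE 0.552). *Wnt5a* had 126, 98 and 235 counts against 15.2, 28 and 54 (0.46, SE 0.396), and *Wnt5b* had 65, 53 and 182 against 3, 9 and 46 (-0.07, SE 0.451). *Wnt2b* (51, 39 and 108 counts against 10, 7 and 56) and *Wnt6* (31, 24 and 9 against 6, 7 and 36) had logFC values of 1.03 (SE 0.555) and 1.72 (SE 0.806) that did not pass, and *Wnt6* in AAV-Control was lowest in the deepest library. *Wnt16*, a WNT of cortical bone, had 30, 43 and 66 counts against 0, 2 and 21 (-0.58, SE 0.748). *Wnt11* (13, 11 and 21 counts against 1, 6 and 36) and *Wnt7a* (3, 0 and 0 against 1, 3 and 27) did not pass the filter, and for *Wnt7a* 27 of the AAV-VEGF-C counts came from AAV-VEGF-C 3.

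Among the FGFs, *Fgf1*, which binds all FGF receptors, had 20, 20 and 61 counts against 3, 8 and 18 (logFC 0.80, SE 0.502). *Fgf7* had 39, 14 and 67 counts against 3, 2 and 9 (-0.49, SE 0.777). *Fgf18*, a ligand of cartilage and bone, had 13, 10 and 47 counts against 1, 3 and 6 and did not pass the filter. The intracellular *Fgf11* (76, 75 and 131 counts against 3, 26 and 32) and *Fgf12* (18, 16 and 25 against 3, 4 and 23) had logFC values of 0.24 (SE 0.437) and 1.28 (SE 0.589) and did not pass, while their relative *Fgf13* did.

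The counts of the AAV-VEGF-C libraries were then set against the silent-gene rate. The rate times the exonic length of a gene gave its reference count, and a gene was taken as above it where the lower bound of the exact 95% Poisson interval of its count exceeded that reference, which covers counting error only. By this measure 22 of the 68 ligand genes were above the rate in all 3 AAV-VEGF-C libraries, 13 in 2, 23 in 1 and 10 in none. Of 21829 other protein-coding genes 39.4% were above it in all 3 libraries, against 32.4% of the ligand genes. The 22 were *Bmp1*, *Bmp2*, *Bmp4*, *Bmp5*, *Bmp6*, *Bmp7*, *Fgf2*, *Fgf5*, *Fgf6*, *Fgf10*, *Fgf13*, *Gdf5*, *Gdf7*, *Gdf10*, *Inhba*, *Inhbe*, *Wnt2b*, *Wnt3a*, *Wnt5a*, *Wnt5b*, *Wnt6* and *Wnt9a*. In AAV-Control the rate came from olfactory, vomeronasal and taste receptor genes and from keratin-associated protein and defensin genes. There, 32 ligand genes were above it in all 3 libraries, and 16 ligand genes were above in all 6 libraries. The share of other genes above the AAV-Control rate is not given here. The rates of the groups came from different genes and depths, so the numbers of the groups cannot be compared.

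*Gdf10* had 80.5, 90.6 and 123 times its reference count in AAV-VEGF-C 1, 2 and 3, of like size in all 3. *Inhba* had 421, 86.4 and 7.40 times its reference and *Fgf5* 244, 51.0 and 2.97 times, so both were nearest the rate in the deepest library. *Gdf7* stayed at 24.3, 14.9 and 17.6 times.

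Of the called genes, 3 were not above the rate in all 3 libraries. *Bmp3* had 3, 8 and 20 counts for references of 1.71, 4.23 and 12.9, *Bmp10* had 4, 5 and 10 for 1.04, 2.57 and 7.85, and *Wnt7b* had 3, 4 and 43 for 1.13, 2.80 and 8.57. For these genes the counts of AAV-VEGF-C libraries were close to what a gene silent in AAV-Control received per kb, except *Wnt7b* in AAV-VEGF-C 3 and *Bmp10* in AAV-VEGF-C 1, which were above it. *Fgf6* had 4.64, 3.00 and 1.84 times its reference and *Wnt3a* 6.27, 3.80 and 3.93 times, above the rate in every library by small counts.

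The reference depended on base composition. Silent genes received 0.697 counts per kb in AAV-VEGF-C 3 in the lowest of 4 equal classes of GC content and 3.79 in the highest, and 55 of the 68 ligand genes fell in the highest class (median GC 53.3%, against 44.6% for silent genes). With the rate of the same GC class, an alternative chosen after seeing the data, 14 ligand genes were above it in all 3 libraries, and of the 11 called genes these were *Fgf10*, *Fgf13*, *Gdf7* and *Inhba*. The share of other protein-coding genes above the GC-matched rate is not given here, so whether 14 is many or few was not tested. The median ligand gene had 3.61, 2.83 and 3.93 times its reference in AAV-VEGF-C 1, 2 and 3, and 2.0, 1.77 and 1.86 times with the GC-matched rate.

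**Figure D4:**
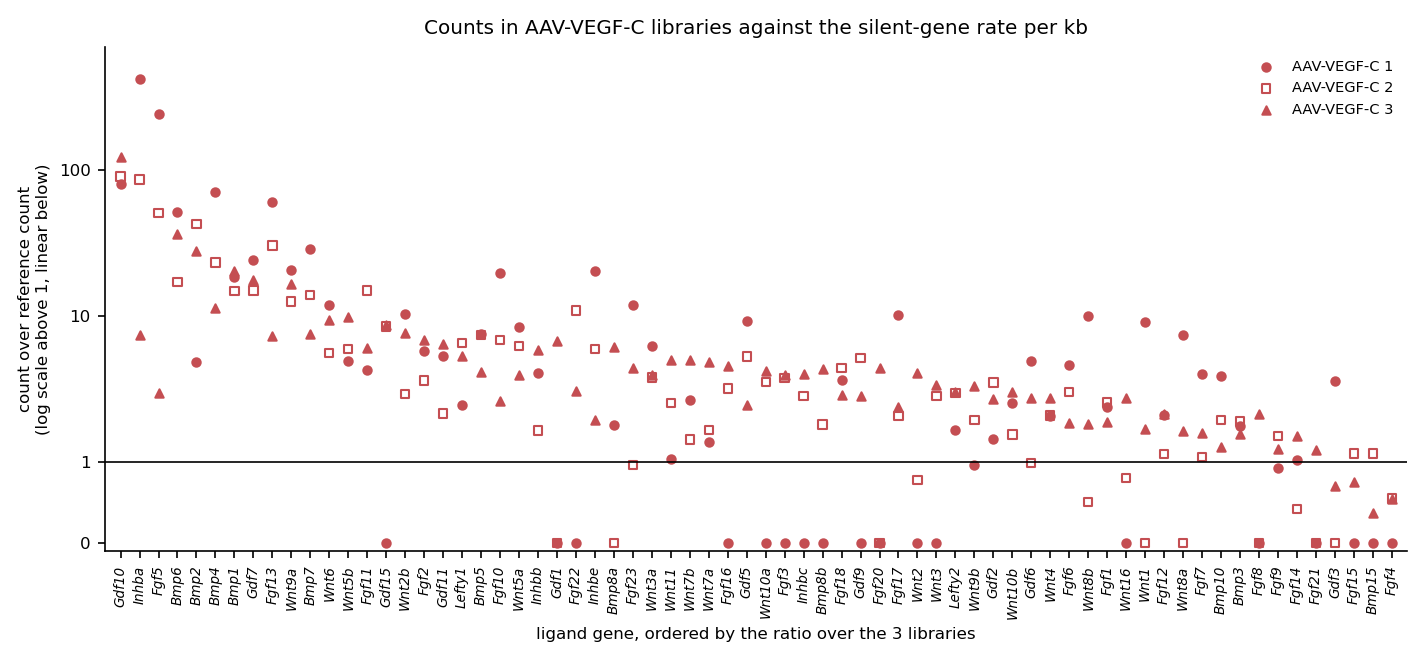
Count of each of the 68 ligand genes over its reference count from the silent-gene rate per kb (vertical axis, logarithmic above 1 and linear below; the line is at 1) in AAV-VEGF-C 1, 2 and 3. *Gdf10* lies near 100 in all 3 libraries, *Inhba* and *Fgf5* spread from above 200 to below 10, and from about the middle of the order the points scatter around and above 1, with many at 0 in AAV-VEGF-C 1.

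The other 29 ligand genes had low counts and are given by range. They were 12 *Fgf*, 9 *Wnt*, 4 *Gdf* and 3 *Bmp* genes and *Inhbc*, with 0 to 45 counts in an AAV-Control library and 0 to 29.3 in an AAV-VEGF-C library. Their summed AAV-VEGF-C counts were 0.49 to 4.66 times the reference. Of these, *Wnt4* (8, 13 and 40 counts against 2, 5 and 20; logFC 1.30, SE 0.582, edgeR adjusted p = 0.192) and *Wnt10b* (4, 2 and 45 against 2, 3 and 18; 1.51, SE 0.947, adjusted p = 0.337) passed the filter and not the test. *Fgf3*, *Gdf1*, *Inhbc* and *Wnt8a* had 0 counts in every AAV-Control library, where 3 counts is the floor used here. *Gdf2*, the circulating ligand of Acvrl1, had 9, 4 and 11 counts against 1, 6 and 14. *Gdf1* shares its position with *Cers1* on the same strand, and *Bmp8a* and *Bmp8b*, near-identical copies with fractional counts, cannot be told apart with certainty.

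The receptors, modulators and targets of these ligands were read from the same fit. Of 65 partner genes, 58 were tested, 4 were higher and 0 were lower in edgeR, beside the 10.5% and 0.659% of all genes. DESeq2 called 5 higher and 8 lower of 64 tested, beside its 12.7% and 1.13% of all genes. The 4 were *Klb*, the co-receptor of endocrine FGFs (1, 1 and 0 counts against 6, 7 and 9; logFC 5.94, SE 1.13, edgeR adjusted p = 0.0213), *Lgr5*, an R-spondin receptor and WNT target (10, 3 and 11 against 3, 6 and 24; 2.72, SE 0.699, adjusted p = 0.0453), and the antagonists *Grem1* (20, 20 and 34 against 16, 14 and 40; 2.72, SE 0.596, adjusted p = 0.0284) and *Chrdl2* (6, 0 and 7 against 6, 19 and 24; 4.52, SE 0.958, adjusted p = 0.0264). The 4 genes had at most 40 counts in any library.

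Several receptors of these ligands had far more counts. Of 17 tested BMP and activin receptors and targets, 0 passed in edgeR with 7 at an unadjusted p under 0.05, and their median logFC was -0.83, beside a median of -0.00372 over all tested genes. Marker lists of other vessel and stromal cells lay near it: the median logFC was -1.18 for blood endothelium (0 of 6 passed in edgeR or DESeq2, 0 at an unadjusted p under 0.05; 336 to 3455 CPM against 473 to 925 CPM), -0.78 for mural cells (0 of 6 passed in edgeR, 1 at an unadjusted p under 0.05, and DESeq2 called *Pdgfrb* lower; 523 to 1090.5 CPM against 181 to 554 CPM) and -1.02 for fibroblasts, and their part was not tested. *Acvrl1*, the receptor of *Bmp10*, had 565, 797 and 2105 counts against 19, 88 and 266 (-0.85, SE 0.318, edgeR adjusted p = 0.131). *Bmpr2* had 1677, 1907 and 5969 counts against 41, 232 and 504 (-1.17, SE 0.343, edgeR adjusted p = 0.0704). With the block, *Bmpr2*, *Bmpr1a*, *Id1* and *Bambi* were lower. The immediate BMP target *Id1* stood at a logFC of -1.26 (SE 0.483) without the block (edgeR adjusted p = 0.137).

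In the FGF list, *Klb* alone of 14 tested genes passed, and the list's median was -0.32. *Fgfr1* had 3579, 2343 and 3961 counts against 105, 249 and 928 (-0.73, SE 0.381) and *Fgfr2* had 2415, 1272 and 3456 against 37, 100 and 535 (-1.32, SE 0.440, edgeR adjusted p = 0.0983, lower with the block). The feedback genes *Spry1* (-0.21, SE 0.345) and *Dusp6* (0.04, SE 0.419), which rise where FGF signalling is active, did not pass. *Etv4* (13, 4 and 8 counts against 3, 4 and 26; 2.49, SE 0.795, edgeR adjusted p = 0.0888) was called higher by DESeq2, and *Spry2* stood at -1.11 (SE 0.406, edgeR adjusted p = 0.123). In the WNT list the median was 0.30, and the target *Axin2* (0.25, SE 0.408) and the acyltransferase *Porcn* (0.23, SE 0.419) did not pass. The feedback genes *Notum* (2.09, SE 0.659, edgeR adjusted p = 0.0855) and *Rnf43* (1.27, SE 0.442, adjusted p = 0.11) and the carrier *Wls* (439, 578 and 1249 counts against 18, 57 and 154; -0.85, SE 0.246, adjusted p = 0.0678) missed the threshold in edgeR, and DESeq2 called *Wls* lower.

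Summed over the 68 genes, ligand RNAs took 1312, 798 and 1061 CPM in AAV-Control and 2267, 938 and 1043 CPM in AAV-VEGF-C. The ratio of means was 1.34 (two-sided exact permutation p = 0.7, where 3 libraries against 3 allow no p under 0.1), and the groups overlapped. Without AAV-VEGF-C 1, in which *Inhba* alone gave 1103 CPM, the ratio was 0.937. *Gdf10*, *Bmp1* and *Bmp6* were the 3 genes with the highest summed counts, which come mostly from the deeper AAV-Control libraries, so leaving them out takes more from AAV-Control and keeps *Inhba*. The remaining sums were 339, 252 and 307 CPM against 1945, 672 and 525 CPM, a ratio of 3.50 (exact permutation p = 0.1), which was 2.0 without AAV-VEGF-C 1, an alternative added after seeing the data. Without *Gdf10* alone it was 2.48. At least 1 count was found for 57, 53 and 52 ligand genes in AAV-Control against 50, 60 and 68 (exact permutation p = 0.5). When all libraries were drawn down to the smallest total, 35.4, 28.8 and 31.7 ligand genes were detected in AAV-Control against 50, 52.5 and 61 (exact permutation p = 0.1), the values being means over repeated draws. The equal-depth share over all genes is not given here, and whether the rise is particular to ligand genes was not tested. Without drawing down, the olfactory receptor and other families named above also had a count in more of their 2187 genes. The shares were 24.92%, 20.76% and 32.19% in AAV-Control and 32.74%, 54.09% and 71.97% in AAV-VEGF-C 1, 2 and 3.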

How the data were processed

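Total RNA of sorted dural LECs was made into stranded low-input total RNA libraries, 3 per group. The authors deposited estimated counts per gene, unscaled, and TPM, corrected for length and library total; the submitters' processing notes name FastQC, Trimmomatic, DRAGEN, Picard and the build mm10, and the counting program and its use of strand are not given in the sources used here. Gene identifiers matched GENCODE M21 on GRCm38 (98.1% with version), which gave positions, lengths and GC content.

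Counts were rounded, filtered by filterByExpr and scaled by TMM. They were tested with the quasi-likelihood test of edgeR 4.0.16 (R 4.3.3) across all genes, with Benjamini-Hochberg adjustment at 0.05. The SE given for edgeR is approximate: the absolute logFC divided by the square root of the F statistic of the test. DESeq2 1.42.0, limma 3.58.1 on log2(TPM + 1) and log2(TPM + 0.1), other scalings and filters, the replicate block, subtraction of the silent-gene rate and leaving out each library were alternatives. Single values were compared by exact permutation tests (scipy 1.17.1). The fit was also run on simulated data, and the outcome is not given here. Genes named with values in every library had a mean of at least 1 TPM in a group, an adjusted p under 0.05, a count above the silent-gene rate in all 3 AAV-VEGF-C libraries, or were displayed by the study; the other genes given per library were chosen after their values were seen. The genes and lists were chosen with earlier results of these data known.

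Replicate numbers name experiments in the labels, and the labels pair the libraries. After the mean of each group was taken off, the 2 libraries of experiments 1, 2 and 3 correlated at 0.369, 0.28 and 0.155. These correlations run across genes, which are not independent replicates. AAV-Control 3 correlated more with AAV-VEGF-C 2 (0.216) than with AAV-VEGF-C 3 (0.155), so for experiment 3 the pairing rests on the labels. The main test did not use the pairing. Replicates differed by more than sampling noise (lowest ratio of chi-square to its degrees of freedom 9.61). Pools of animals are the replicates. Totals of 564475 to 12399498 counts and the spread between replicates both limit the precision. RefSeq promoter entries were found for 48 of the 68 genes.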

Additional observations from a re-analysis of the deposited data

How the results depend on the processing

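The number of ligand genes called higher was 11. It became 29 without a filter, 0 among genes averaging at least 5 TPM (9 ligand genes tested, 4 at an unadjusted p under 0.05; edgeR called 9 genes over the whole table), 23 with DESeq2, 7 with limma on log2(TPM + 0.1), 0 after subtraction of the silent-gene rate (9 at an unadjusted p under 0.05, with *Inhba* at 7.29 and *Fgf5* at 10.58 on the log2 scale), and 0 to 13 when single libraries were left out. The number called lower, 0, became 2 without a filter, 2 with DESeq2, 1 with limma on log2(TPM + 1) and 2 with the replicate block. Partner genes called, 4 (0 lower), became 19 without a filter, 0 at a mean of at least 5 TPM, 13 with DESeq2, 11 with the replicate block, 0 after subtraction, and 0 to 6 when single libraries were left out. Without a filter 15 of the 19 were lower, beside 2.64% of all genes. DESeq2 called 8 of its 13 lower, beside 1.13%, and the block 7 of its 11, beside 2.07%. The number of ligand genes above the silent-gene rate, 22, became 12 with the 95th percentile of silent genes and 14 with the GC-matched rate. It was 15 when silent genes could have up to 3 counts in each AAV-Control library. With the silent gene families, and with lengths from counts and TPM, it was 16. The shares of other genes under these alternatives are not given here. Leaving out an AAV-VEGF-C library gave 22 to 31, where the rule lets the number only stay or rise. The summed ratio of 1.34 became 3.50 without *Gdf10*, *Bmp1* and *Bmp6* (2.0 if AAV-VEGF-C 1 was also left out) and 0.937 to 1.57 when single libraries were left out. The difference in detected ligand genes, 5.33, became -0.33 at a minimum of 10 counts and 22.55 at equal depth, where no value for other genes is given. *Bmp4* reversed to -0.48 and -0.55 under limma with the larger and the smaller pseudocount, where the median of all genes also moved, to -0.72 and -1.04. Scaling on the 2000 most abundant genes moved the median of all genes to 0.32, and 11 ligand genes were called. Of 211 alternative fits of the 14 named genes, 63 lost a call, 8 gained one and 2 reversed. The replicate block changed no other call among the 14 named genes than those of *Bmp3*, *Fgf2* and *Gdf10*. The causes were not tested. Depth limits the AAV-VEGF-C values: 13 ligand genes had 10 or more counts in AAV-VEGF-C 1 and 57 in AAV-VEGF-C 3.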
